A study of Mus musculus with 8 samples.

Results

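The G2 and M phase genes are 40 mitotic genes whose RNA was followed through 4 groups of sorted mouse granulocyte progenitors (GPs), the bone marrow cells that give rise to granulocytes. The genes were taken by name from a list of mitotic genes, chosen with earlier results of these data known. They were found on the arrays through the RefSeq accession of each probe. All 40 had at least 1 probe, 55 probes in all, and all 40 were among the 14110 genes tested. The groups were Flt3+ GPs from mice labelled Irf8KO, Flt3+ GPs from wild-type (WT) mice, Flt3- GPs from mice labelled Irf8KO and Flt3- GPs from WT mice, each with 2 samples from 2 numbered experiments. Flt3 is a cytokine receptor on the surface of early haematopoietic progenitors, and Irf8 encodes a transcription factor of the monocyte and dendritic cell lineages. The cells were used as isolated, with no treatment, and total RNA was labelled with Cy3 and hybridised to 1 array per sample, 8 in all. The design of the Irf8 allele, the strain, the age, the number of animals behind a sample and the full sorting gate are not given in the labels. Nothing says that the 2 samples of a group came from separate animals. Each p-value therefore sets a difference against a spread between samples of a group, estimated over all 4 groups, that may be technical.

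G2 and M phase genes are transcribed late in the cell cycle, so in a mixed population their summed RNA tracks how many cells are preparing for or going through division. CDK1 bound to A- and B-type cyclins drives entry into mitosis, Polo-like and Aurora kinases build the spindle, the checkpoint proteins hold anaphase until every kinetochore is attached, and the anaphase-promoting complex (APC/C) then destroys cyclin B and securin. Granulocyte progenitors divide before their descendants become non-dividing neutrophils. In RNA of whole samples, fewer dividing cells and less of these RNAs per dividing cell cannot be told apart.

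Many of these promoters carry a CHR element (cell cycle genes homology region), where the DREAM and B-MYB–MuvB complexes bind, and upstream CCAAT boxes bound by NF-Y. The windows of 6 genes whose values carry the results are printed first, from RefSeq on build GRCm38.p6. Each runs 5′ to 3′ along the strand of the gene from 250 bases before the start site to 50 bases after it. Capitals mark the letters TTTGAA or TTCGAA (CHR) and CCAAT, searched on both strands, so that CCAAT on the other strand reads ATTGG.
Ccnb2: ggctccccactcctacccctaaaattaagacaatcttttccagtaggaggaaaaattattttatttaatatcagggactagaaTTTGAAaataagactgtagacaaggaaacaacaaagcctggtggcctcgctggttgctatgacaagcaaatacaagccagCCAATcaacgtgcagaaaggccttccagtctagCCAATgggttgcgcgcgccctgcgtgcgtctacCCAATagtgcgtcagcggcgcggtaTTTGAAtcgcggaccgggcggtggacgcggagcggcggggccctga
Cdc20: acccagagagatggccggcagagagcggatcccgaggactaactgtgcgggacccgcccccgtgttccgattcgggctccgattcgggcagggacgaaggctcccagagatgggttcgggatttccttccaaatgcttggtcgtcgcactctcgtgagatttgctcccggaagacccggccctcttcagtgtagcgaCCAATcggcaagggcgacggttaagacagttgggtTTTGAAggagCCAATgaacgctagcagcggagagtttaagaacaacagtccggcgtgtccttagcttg
Plk1: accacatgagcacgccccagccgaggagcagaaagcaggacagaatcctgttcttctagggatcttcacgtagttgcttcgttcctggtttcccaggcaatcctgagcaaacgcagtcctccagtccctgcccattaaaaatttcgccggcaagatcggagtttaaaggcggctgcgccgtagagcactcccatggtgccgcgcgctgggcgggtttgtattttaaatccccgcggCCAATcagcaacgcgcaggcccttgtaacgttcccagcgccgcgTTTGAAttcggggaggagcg
Aurka: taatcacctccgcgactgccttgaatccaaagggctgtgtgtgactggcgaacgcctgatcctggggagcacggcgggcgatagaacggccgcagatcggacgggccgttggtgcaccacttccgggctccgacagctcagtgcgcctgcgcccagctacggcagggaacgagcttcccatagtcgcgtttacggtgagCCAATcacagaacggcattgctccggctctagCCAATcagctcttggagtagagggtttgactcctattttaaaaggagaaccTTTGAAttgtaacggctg
Cdk1: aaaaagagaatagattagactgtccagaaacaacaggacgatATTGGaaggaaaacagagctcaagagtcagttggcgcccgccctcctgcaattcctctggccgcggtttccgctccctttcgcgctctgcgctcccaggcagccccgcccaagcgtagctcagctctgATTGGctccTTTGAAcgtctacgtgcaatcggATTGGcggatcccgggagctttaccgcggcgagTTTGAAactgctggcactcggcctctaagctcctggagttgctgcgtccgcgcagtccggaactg
Ccnb1: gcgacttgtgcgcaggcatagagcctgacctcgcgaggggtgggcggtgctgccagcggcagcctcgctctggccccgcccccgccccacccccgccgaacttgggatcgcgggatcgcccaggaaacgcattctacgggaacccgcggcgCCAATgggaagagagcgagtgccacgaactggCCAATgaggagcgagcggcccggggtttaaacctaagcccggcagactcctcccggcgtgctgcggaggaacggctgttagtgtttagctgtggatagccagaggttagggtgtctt
The Ccnb2 window lies at chr9:70421505-70421804, the Cdc20 window at chr4:118437294-118437593, the Aurka window at chr2:172370521-172370820, the Cdk1 window at chr10:69352863-69353162 and the Ccnb1 window at chr13:100786437-100786736, all on the minus strand, and the Plk1 window at chr7:122159185-122159484 on the plus strand. The Ccnb2 window holds CCAAT at -87, -54 and -21 from the start site and TTTGAA at -167 and 5, counted to the first base of the match. In Cdc20 the CCAAT boxes begin at -53 and -8 and TTTGAA at -18, and in Plk1 CCAAT begins at -14 and a CHR match at 31. The Cdk1 window holds CHR matches at -71 and -15, and the Aurka window holds CCAAT at -51 and -19 and a CHR match at 33. The Ccnb1 window holds 2 CCAAT boxes, at -99 and -67, and no TTTGAA or TTCGAA.

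Windows were given for 34 of the 40 genes; none was used here for Ccna2, Aurkb, Kif20a, Cdc25c, Tpx2 and Incenp. TTTGAA or TTCGAA stood in 27 of the 34 (79.4%), against 19.4% of 27025 genes with a window of the same length. CCAAT stood in 27 of the 34 (79.4%), against 37.9% of all windows, and at least 2 CCAAT boxes in 17 of the 34 (50%), against 12.2%. Both elements together stood in 24 of the 34 (70.6%), against 7.7%. Of 35 CHR matches, 27 began within 100 bases before and 50 bases after the start site, as did 46 of 60 CCAAT matches. Birc5, Mad2l1, Nuf2 and Nusap1 held neither, and Nek2, Cenpe and Ccnb1 held CCAAT only. A match is a stretch of letters and not a measured binding site. The median genotype difference, given as log2 of Irf8KO over WT, was 0.43 in Flt3+ GPs and -0.36 in Flt3- GPs for the 27 genes with a CHR match, and 0.46 and -0.49 for the 7 without one.

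**Figure D1:**
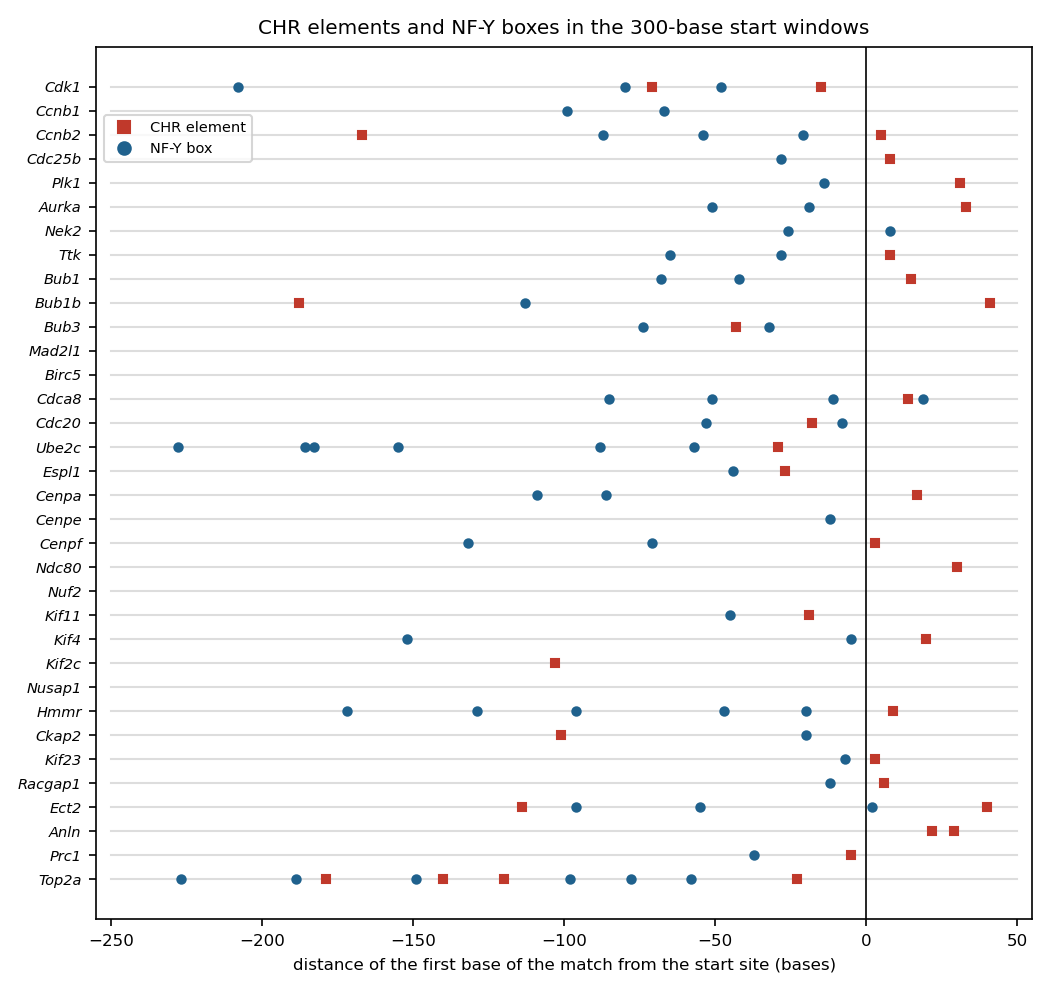
Matches to the CHR element (red squares) and to the NF-Y box (blue circles) in the windows of 34 G2 and M phase genes, by distance in bases of their first base from the start site (line at 0). Most matches of both kinds lie within 100 bases of the start site, and 4 genes have none of either.

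Each array held 59305 spots that were not controls, and 54.9 to 60.1% of them passed the flag for well above background, with none saturated. Values are log2 of the processed signal minus the 75th percentile of the array, so that 0 is the level of that percentile and a difference of 1 is a doubling. Arrays of one group correlated at r = 0.996 to 0.998 across genes, and the median SD between the 2 arrays of a group over the mitotic genes was 0.027 to 0.053. All 11 markers of granulocyte progenitors, such as Mpo and Elane, were well above background on both arrays of every group, at levels that differed widely between groups. The Flt3 probe read 6.29 and 6.30 on Irf8KO Flt3+ arrays, 6.21 and 6.21 on WT Flt3+ arrays, 2.71 and 2.68 on Irf8KO Flt3- arrays and 1.69 and 1.66 on WT Flt3- arrays. The Irf8 probe read 6.67 and 6.67 on arrays labelled Irf8KO and 5.80 and 5.87 on WT arrays of Flt3+ GPs, and 5.64 and 5.53 on arrays labelled Irf8KO and 4.85 and 4.88 on WT arrays of Flt3- GPs, so it was higher on the arrays labelled Irf8KO. No label tells which part of Irf8 was removed or whether the probe covers it, so the genotype labels could not be checked with it, and "Irf8KO" below stands for samples labelled so. Irf8KO and WT arrays lay in different rows of 1 slide, and Flt3+ and Flt3- arrays in different columns, so slide position and group cannot be told apart.

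The mitotic genes were most abundant in Irf8KO Flt3+ GPs and least abundant in Irf8KO Flt3- GPs, with both WT populations between. The median over the 40 genes was 2.91 and 2.92 on Irf8KO Flt3+ arrays, 2.43 and 2.51 on WT Flt3+ arrays, 2.17 and 2.20 on Irf8KO Flt3- arrays and 2.44 and 2.49 on WT Flt3- arrays, higher in experiment 2 in every group. Both Irf8KO Flt3+ arrays lay above the other 6 arrays for 37 of the 40 genes, where 9.54% of all genes tested did so, and the exceptions were Cdca8, Mad2l1 and Racgap1. They lay below the other 6 for none of the 40, against 8.7% of all genes. Both Irf8KO Flt3- arrays lay below the other 6 for 34 of the 40, against 14.4% of all genes, the exceptions being Kif23, Bub3, Cenpe, Kif2c, Nusap1 and Anln. By group means, Irf8KO Flt3+ was highest for 38 genes and Irf8KO Flt3- lowest for 37. The order between the WT populations was mixed: 20 genes ran Irf8KO Flt3+, WT Flt3+, WT Flt3-, Irf8KO Flt3- from high to low, and 15 ran Irf8KO Flt3+, WT Flt3-, WT Flt3+, Irf8KO Flt3-. Mad2l1 and Racgap1 were highest in WT Flt3- GPs.

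**Figure D2:**
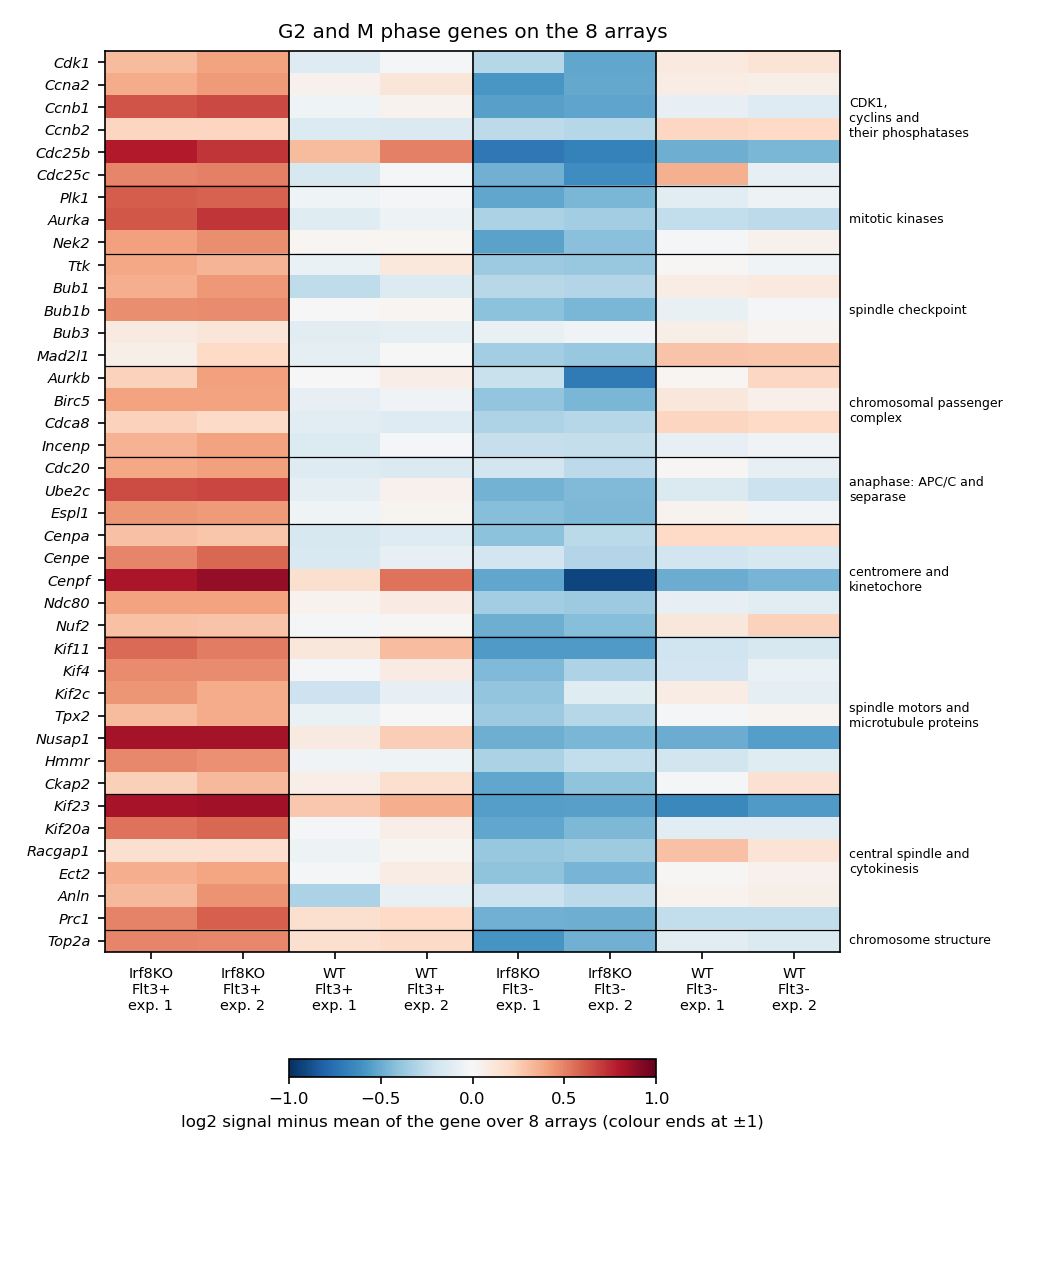
Log2 signal of the 40 genes (rows, grouped by role) on the 8 arrays (columns, 2 per group), as the difference from the mean of the gene over all arrays. The 2 Irf8KO Flt3+ columns are the highest for 37 genes and the 2 Irf8KO Flt3- columns the lowest for 34.

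In Flt3+ GPs, 35 of the 40 genes rose in Irf8KO over WT and none fell, where 29% of all 14110 genes were called, 16.5% higher and 12.5% lower (limma, adjusted p under 0.05). The median log2 difference of the 40 was 0.435, against 0.039 over all genes. In Flt3- GPs, 32 of the 40 fell in Irf8KO and none rose, where 43.6% of all genes were called, 27.2% lower and 16.5% higher. Their median was -0.38, against -0.035 over all genes. The genotype differences in Flt3+ and in Flt3- GPs come from different arrays, and 28 genes were called higher in the first and lower in the second, against 2.89% of all genes. The interaction, which tests whether the genotype difference is itself different between the populations, was called for 39 of the 40 genes with a higher value in Flt3+ GPs and for none with a lower one, against 21.4% and 9.45% of all genes. Its median was 0.82, against 0.069 over all genes.

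**Figure D3:**
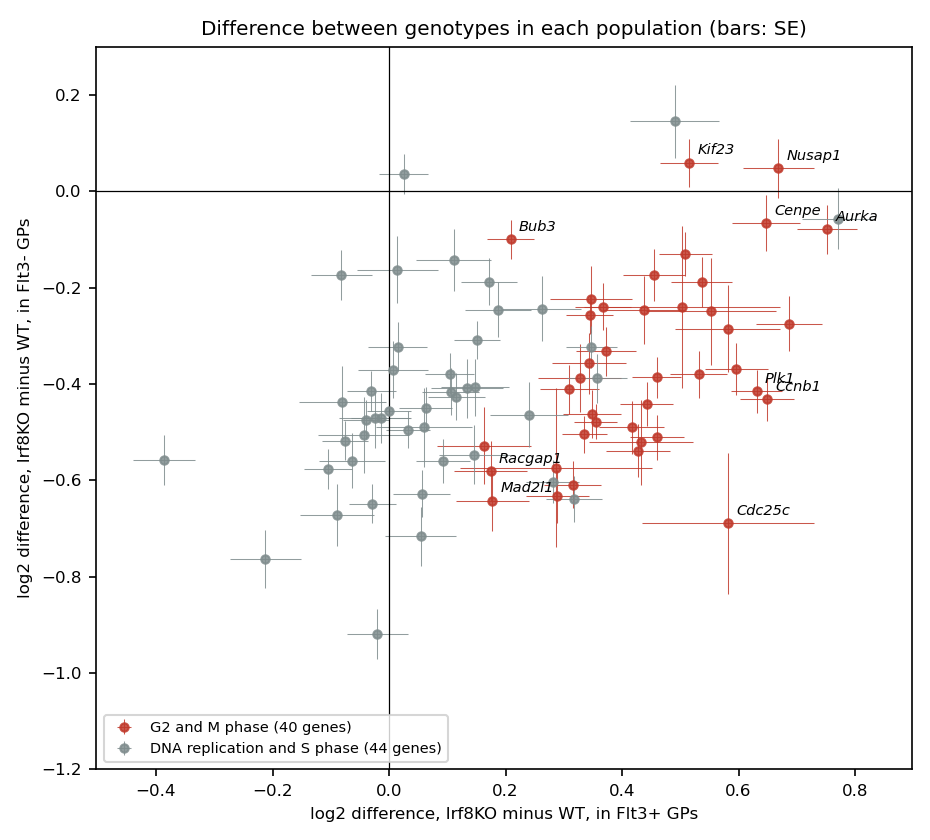
Log2 difference of Irf8KO minus WT in Flt3+ GPs (horizontal axis) and in Flt3- GPs (vertical axis) for 40 G2 and M phase genes (red) and 44 genes of DNA replication and S phase (grey), with SE bars. All 40 red points lie right of 0, and 38 of them lie below 0.

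Cdk1, the kinase whose activation starts mitosis, read 2.83 and 2.91 on Irf8KO Flt3+ arrays, 2.38 and 2.5 on WT Flt3+ arrays, 2.23 and 1.99 on Irf8KO Flt3- arrays and 2.61 and 2.65 on WT Flt3- arrays. Its highest values were on the Irf8KO Flt3+ arrays and its lowest on the Irf8KO Flt3- arrays, and Irf8KO and WT arrays did not overlap in either population. Cdk1 was higher by 0.43 ± 0.089 (SE) in Irf8KO Flt3+ GPs (limma adjusted p = 0.0176) and differed by -0.52 ± 0.089 (SE) in Irf8KO Flt3- GPs (adjusted p = 0.00595), or by -0.30 there over the mean of its 3 probes. Ccnb1, cyclin B1, read 3.71 and 3.75 on Irf8KO Flt3+ arrays, 3.04 and 3.12 on WT Flt3+ arrays, 2.54 and 2.56 on Irf8KO Flt3- arrays and 3.0 and 2.96 on WT Flt3- arrays. The WT populations were nearly level and the Irf8KO populations stood on either side of them on this probe, while both dimmer Ccnb1 probes were lower in WT Flt3+ than in WT Flt3- GPs, with differences of -0.59 and -0.49. The interaction of Ccnb1 was 1.08 ± 0.065 (SE) (limma adjusted p = 0.000874). Ccnb2, cyclin B2, read 4.48 and 4.48 on Irf8KO Flt3+ arrays, 4.13 and 4.12 on WT Flt3+ arrays, 4.0 and 3.98 on Irf8KO Flt3- arrays and 4.47 and 4.46 on WT Flt3- arrays, so that WT Flt3- GPs stood nearly as high as Irf8KO Flt3+ GPs. Ccna2, cyclin A2, which acts from S phase to early mitosis, read 4.04 and 4.09 on Irf8KO Flt3+ arrays, 3.71 and 3.78 on WT Flt3+ arrays, 3.09 and 3.15 on Irf8KO Flt3- arrays and 3.74 and 3.72 on WT Flt3- arrays. Its difference in Irf8KO Flt3- GPs was -0.61 ± 0.049 (SE) (limma adjusted p = 0.000543).

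The CDC25 phosphatases remove the inhibitory phosphates of CDK1. Cdc25b read 2.01 and 1.93 on Irf8KO Flt3+ arrays, 1.53 and 1.72 on WT Flt3+ arrays, 0.50 and 0.54 on Irf8KO Flt3- arrays and 0.73 and 0.76 on WT Flt3- arrays. It was higher in Flt3+ than in Flt3- GPs in both genotypes, by 1.45 ± 0.07 (SE) in Irf8KO and 0.88 ± 0.07 (SE) in WT (limma adjusted p = 2.98e-05 and 0.000153). Cdc25c was dimmer and more variable, at -0.45 and -0.43 on Irf8KO Flt3+ arrays, -1.10 and -0.95 on WT Flt3+ arrays, -1.42 and -1.56 on Irf8KO Flt3- arrays and -0.58 and -1.02 on WT Flt3- arrays. It had the largest fitted interaction of the 40 genes on the probes used, 1.27 ± 0.21 (SE) (limma adjusted p = 0.00892). The 2 dimmer Ccnb1 probes gave larger ones, 1.31 and 1.33. All 6 genes of this role were called higher in Irf8KO Flt3+ GPs, against 16.5% of all genes, and all 6 lower in Irf8KO Flt3- GPs, against 27.2%. The CDC25 calls were near the threshold: Cdc25c passed in Flt3+ GPs under 11 of 18 alternatives and Cdc25b in Flt3- GPs under 8 of 18, where its adjusted p was 0.0458 (limma) and 0.0581 with the experiment as a block.

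Plk1, Polo-like kinase 1, which acts from mitotic entry to cytokinesis, read 4.56 and 4.55 on Irf8KO Flt3+ arrays, 3.91 and 3.94 on WT Flt3+ arrays, 3.43 and 3.5 on Irf8KO Flt3- arrays and 3.85 and 3.91 on WT Flt3- arrays. The WT populations lay close together, and the Irf8KO populations lay clear of them in opposite directions. Plk1 differed by 0.63 ± 0.044 (SE) in Irf8KO Flt3+ GPs (limma adjusted p = 0.000388), by -0.42 ± 0.044 (SE) in Irf8KO Flt3- GPs (adjusted p = 0.00125) and by 1.05 ± 0.062 (SE) between these differences (adjusted p = 0.000865). Aurka, Aurora kinase A of the centrosome and spindle poles, read 4.12 and 4.22 on Irf8KO Flt3+ arrays, 3.38 and 3.45 on WT Flt3+ arrays, 3.19 and 3.16 on Irf8KO Flt3- arrays and 3.26 and 3.25 on WT Flt3- arrays. On the probes used, it had the largest genotype difference of the 40 genes in Flt3+ GPs, 0.75 ± 0.051 (SE) (limma adjusted p = 0.000341). Its difference in Flt3- GPs was -0.078 ± 0.051 (SE) and was not called (limma adjusted p = 0.266). Nek2, a kinase that separates centrosomes, read 0.92 and 0.97 on Irf8KO Flt3+ arrays, 0.53 and 0.53 on WT Flt3+ arrays, -0.031 and 0.09 on Irf8KO Flt3- arrays and 0.49 and 0.55 on WT Flt3- arrays. The WT populations of Nek2 could not be told apart, with a Flt3+ minus Flt3- difference of 0.0077 ± 0.055 (SE) (limma adjusted p = 0.916).

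The spindle checkpoint genes moved by different amounts. Ttk, the MPS1 kinase that starts checkpoint signalling, read -0.37 and -0.42 on Irf8KO Flt3+ arrays, -0.82 and -0.65 on WT Flt3+ arrays, -1.12 and -1.13 on Irf8KO Flt3- arrays and -0.75 and -0.79 on WT Flt3- arrays. Its genotype differences were near mirror images, 0.34 in Flt3+ and -0.36 in Flt3- GPs (SE 0.064 each, limma adjusted p = 0.0129 and 0.00695). With normexp background correction that in Flt3- GPs was -0.22. Bub1, a checkpoint kinase at the kinetochore, read 1.98 and 2.05 on Irf8KO Flt3+ arrays, 1.36 and 1.47 on WT Flt3+ arrays, 1.34 and 1.32 on Irf8KO Flt3- arrays and 1.69 and 1.71 on WT Flt3- arrays. WT Flt3- arrays lay above WT Flt3+ arrays, and the interaction was 0.97 ± 0.076 (SE) (limma adjusted p = 0.0017). Mad2l1, whose product MAD2 inhibits the APC/C, read 3.63 and 3.77 on Irf8KO Flt3+ arrays, 3.47 and 3.57 on WT Flt3+ arrays, 3.22 and 3.19 on Irf8KO Flt3- arrays and 3.85 and 3.84 on WT Flt3- arrays. It fell by 0.64 in Irf8KO Flt3- GPs (limma adjusted p = 0.000977), while its difference of 0.18 in Flt3+ GPs was not called (adjusted p = 0.0853). Bub3, a partner of BUB1 and BUBR1, read 4.25 and 4.28 on Irf8KO Flt3+ arrays, 4.04 and 4.06 on WT Flt3+ arrays, 4.08 and 4.12 on Irf8KO Flt3- arrays and 4.21 and 4.19 on WT Flt3- arrays. On the probes used, Bub3 had the smallest interaction of the 40 genes, 0.31 ± 0.057 (SE) (limma adjusted p = 0.0125). After quantile normalization it was 0.12 and not called (limma adjusted p = 0.137). Bub1b, which encodes BUBR1, lay between 1.99 and 2.92 over all arrays, and its interaction was 0.85.

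The chromosomal passenger complex corrects wrong attachments and acts in cytokinesis through Aurora kinase B. Its kinase gene Aurkb was dim, at -0.35 and -0.18 on Irf8KO Flt3+ arrays, -0.58 and -0.52 on WT Flt3+ arrays, -0.81 and -1.29 on Irf8KO Flt3- arrays and -0.57 and -0.38 on WT Flt3- arrays. One Irf8KO Flt3- array lay well below the other. The difference of 0.29 in Flt3+ GPs was not called (limma adjusted p = 0.246), while that of -0.57 in Flt3- GPs was (adjusted p = 0.0352). The Flt3- value was -0.34 without Irf8KO Flt3- replicate 2. With the experiment as a block, Aurkb was not called in Flt3- GPs (limma adjusted p = 0.0599) or for the interaction (adjusted p = 0.0652). The other subunits were bright. Birc5, which encodes survivin, read 5.63 and 5.63 on Irf8KO Flt3+ arrays, 5.15 and 5.19 on WT Flt3+ arrays, 4.83 and 4.77 on Irf8KO Flt3- arrays and 5.34 and 5.28 on WT Flt3- arrays. The 2 Irf8KO populations were the extremes again, with an interaction of 0.97 ± 0.066 (SE) (limma adjusted p = 0.00119). Cdca8, which encodes borealin, read 5.14 and 5.10 on Irf8KO Flt3+ arrays, 4.80 and 4.78 on WT Flt3+ arrays, 4.60 and 4.62 on Irf8KO Flt3- arrays and 5.13 and 5.11 on WT Flt3- arrays, with WT Flt3- and Irf8KO Flt3+ arrays overlapping. Incenp, the scaffold, had the smallest difference of the 4 genes in Flt3- GPs, at -0.17 ± 0.053 (SE) (limma adjusted p = 0.0433), and -0.0096 after quantile normalization (adjusted p = 0.891).

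In the 3 genes that release anaphase, Irf8KO Flt3+ GPs were highest and Irf8KO Flt3- GPs lowest. Cdc20, the activator of the APC/C in mitosis, read 5.32 and 5.35 on Irf8KO Flt3+ arrays, 4.81 and 4.79 on WT Flt3+ arrays, 4.75 and 4.67 on Irf8KO Flt3- arrays and 4.95 and 4.85 on WT Flt3- arrays. It rose by 0.54 ± 0.052 (SE) in Irf8KO Flt3+ GPs (limma adjusted p = 0.0013), and its difference in Flt3- GPs was -0.19 ± 0.052 (SE) (adjusted p = 0.0314), or -0.038 after quantile normalization (adjusted p = 0.579). Ube2c, the ubiquitin-conjugating enzyme of the APC/C, read 3.56 and 3.57 on Irf8KO Flt3+ arrays, 2.82 and 2.94 on WT Flt3+ arrays, 2.43 and 2.46 on Irf8KO Flt3- arrays and 2.76 and 2.69 on WT Flt3- arrays. It had the second largest rise in Irf8KO Flt3+ GPs on the probes used, 0.69 ± 0.057 (SE) (limma adjusted p = 0.000728). Its other probe gave 0.85, above the 0.75 of Aurka. Espl1, which encodes separase, the protease that cuts cohesin, read 2.15 and 2.14 on Irf8KO Flt3+ arrays, 1.67 and 1.74 on WT Flt3+ arrays, 1.29 and 1.26 on Irf8KO Flt3- arrays and 1.75 and 1.69 on WT Flt3- arrays. Its WT populations overlapped, and the Irf8KO arrays lay about as far above them in Flt3+ GPs as below them in Flt3- GPs.

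At the centromere, Cenpa, the histone H3 variant that marks it, read 3.47 and 3.46 on Irf8KO Flt3+ arrays, 3.02 and 3.05 on WT Flt3+ arrays, 2.77 and 2.91 on Irf8KO Flt3- arrays and 3.38 and 3.38 on WT Flt3- arrays. WT Flt3- GPs stood close to Irf8KO Flt3+ GPs, and the genotype differences were 0.43 in Flt3+ and -0.54 in Flt3- GPs (SE 0.055 each, limma adjusted p = 0.00363 and 0.00111). Nuf2, a subunit of the NDC80 complex that holds microtubules, read 1.53 and 1.52 on Irf8KO Flt3+ arrays, 1.23 and 1.25 on WT Flt3+ arrays, 0.75 and 0.81 on Irf8KO Flt3- arrays and 1.35 and 1.47 on WT Flt3- arrays. It fell by 0.63 in Irf8KO Flt3- GPs (limma adjusted p = 0.000681). Ndc80 itself lay between 0.27 and 1.04 and rose by 0.34 in Irf8KO Flt3+ GPs. Cenpe, a kinesin that brings chromosomes to the spindle equator, read 4.0 and 4.08 on Irf8KO Flt3+ arrays, 3.36 and 3.43 on WT Flt3+ arrays, 3.32 and 3.22 on Irf8KO Flt3- arrays and 3.32 and 3.35 on WT Flt3- arrays. The Irf8KO Flt3+ arrays stood clear of the other 6, by 0.65 ± 0.058 (SE) from WT (limma adjusted p = 0.00093), and the Flt3- difference of -0.066 was not called (adjusted p = 0.401). Cenpf was the dimmest of the 40 genes, at -2.58 and -2.52 on Irf8KO Flt3+ arrays, -3.24 and -2.86 on WT Flt3+ arrays, -3.92 and -4.32 on Irf8KO Flt3- arrays and -3.89 and -3.86 on WT Flt3- arrays. It differed between the populations in both genotypes, by 1.57 ± 0.17 (SE) in Irf8KO and 0.83 ± 0.17 (SE) in WT, and it alone had no called interaction (0.74 ± 0.24 (SE), limma adjusted p = 0.063). These values of Cenpf depended on the background correction: with normexp they were 0.48, 0.095 and 0.39, of which the second was not called (adjusted p = 0.226) and the third was (adjusted p = 0.0153).

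Among the motors, Kif11, the kinesin that pushes spindle poles apart, read 2.11 and 2.07 on Irf8KO Flt3+ arrays, 1.66 and 1.86 on WT Flt3+ arrays, 0.98 and 0.98 on Irf8KO Flt3- arrays and 1.35 and 1.39 on WT Flt3- arrays. All 4 groups were separate, in the order Irf8KO Flt3+, WT Flt3+, WT Flt3-, Irf8KO Flt3-, and the interaction was 0.72 ± 0.10 (SE) (limma adjusted p = 0.00596). Nusap1, which bundles spindle microtubules, read 3.5 and 3.5 on Irf8KO Flt3+ arrays, 2.76 and 2.91 on WT Flt3+ arrays, 2.18 and 2.21 on Irf8KO Flt3- arrays and 2.17 and 2.12 on WT Flt3- arrays. Its Flt3- populations were close together, with a genotype difference of 0.048 ± 0.061 (SE) (limma adjusted p = 0.566), whereas it rose by 0.67 ± 0.061 (SE) in Irf8KO Flt3+ GPs (adjusted p = 0.00103). Ckap2, a microtubule-stabilising protein of the spindle, fell by 0.53 in Irf8KO Flt3- GPs (limma adjusted p = 0.00402) and differed by 0.16 in Flt3+ GPs without a call (adjusted p = 0.184). Kif4, Kif2c, Tpx2 and Hmmr rose in Irf8KO Flt3+ GPs by 0.44, 0.55, 0.37 and 0.51. In Flt3- GPs Kif4 and Tpx2 were called, at -0.25 and -0.33, and Kif2c and Hmmr were not, at -0.25 and -0.13.

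The cytokinesis genes did not share 1 pattern. Kif23, the motor of centralspindlin, read 2.60 and 2.61 on Irf8KO Flt3+ arrays, 2.04 and 2.14 on WT Flt3+ arrays, 1.22 and 1.23 on Irf8KO Flt3- arrays and 1.13 and 1.20 on WT Flt3- arrays. Flt3+ arrays lay above Flt3- arrays in both genotypes, by 1.38 ± 0.05 (SE) in Irf8KO and 0.92 ± 0.05 (SE) in WT (limma adjusted p = 1.02e-05 and 3.47e-05), and the Flt3- genotype difference of 0.06 was not called (adjusted p = 0.383). Racgap1, the other centralspindlin subunit, read 2.22 and 2.23 on Irf8KO Flt3+ arrays, 2.01 and 2.09 on WT Flt3+ arrays, 1.68 and 1.71 on Irf8KO Flt3- arrays and 2.35 and 2.20 on WT Flt3- arrays. Its pattern differed from that of its partner: it was highest in WT Flt3- GPs, fell by 0.58 in Irf8KO Flt3- GPs (limma adjusted p = 0.00129) and was not called in Flt3+ GPs (0.17, adjusted p = 0.0878). Ect2, the RhoA activator that centralspindlin recruits, had a WT difference between populations of 0.0006 ± 0.05 (SE) (limma adjusted p = 0.992) and an interaction of 0.81. Prc1, which crosslinks the central spindle, Kif20a, a motor of the same structure, and Anln, the actin-binding anillin, rose in Irf8KO Flt3+ GPs by 0.37, 0.53 and 0.58. They fell in Irf8KO Flt3- GPs, with differences of -0.24, -0.38 and -0.28. Top2a, the topoisomerase that untangles sister chromatids, read 3.85 and 3.84 on Irf8KO Flt3+ arrays, 3.53 and 3.55 on WT Flt3+ arrays, 2.77 and 2.88 on Irf8KO Flt3- arrays and 3.26 and 3.22 on WT Flt3- arrays. Its 4 groups were separate, and its interaction was 0.72 ± 0.072 (SE) (limma adjusted p = 0.00261).

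**Figure D4:**
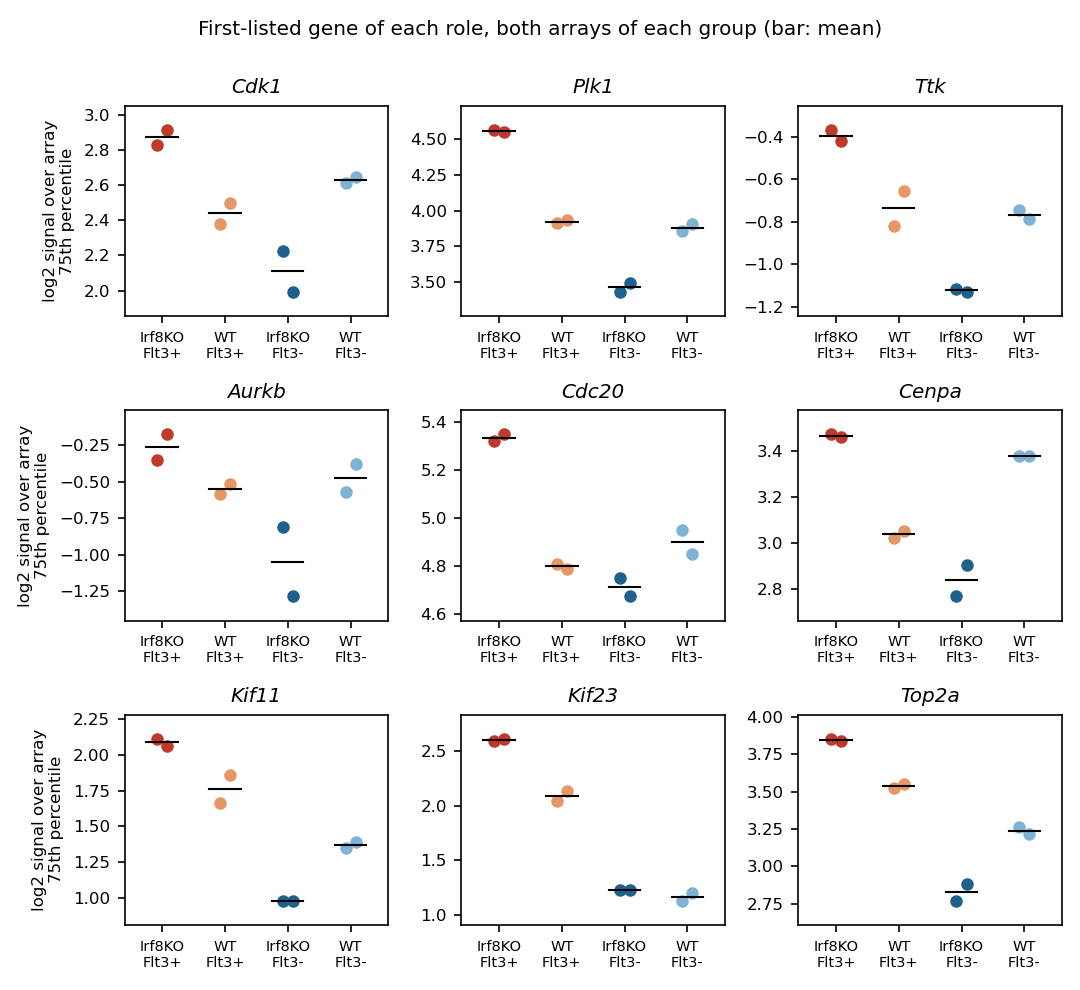
Log2 signal over the 75th percentile of the array for the first-listed gene of each of 9 roles, with both arrays of each group as points and their mean as a bar. Each panel has its own vertical axis, which does not start at 0. In all 9 panels the Irf8KO Flt3+ points are the highest, and in all but Kif23 the Irf8KO Flt3- points are the lowest.

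On the probes used, the rise in Irf8KO Flt3+ GPs was led by Aurka, Ube2c, Nusap1, Ccnb1, Cenpe, Plk1, Bub1 and Cdc25c, at 0.75, 0.69, 0.67, 0.65, 0.65, 0.63, 0.60 and 0.58. None of the 40 reached a doubling. The 5 genes without a call, Aurkb, Cenpf, Mad2l1, Ckap2 and Racgap1, had differences of 0.29, 0.50, 0.18, 0.16 and 0.17. For all 40 genes both Irf8KO arrays lay above both WT arrays, as did 39.1% of all genes. Kif11, Kif23 and Top2a rose by 0.33 ± 0.071 (SE), 0.52 ± 0.05 (SE) and 0.31 ± 0.051 (SE), with Top2a at 0.19 and not called after normexp background correction (limma adjusted p = 0.0542). Without Irf8KO Flt3+ replicate 1, and likewise without replicate 2, 26 genes were called, and Bub3, Cdc25b, Cdc25c, Cdk1, Kif11, Kif2c, Nuf2, Top2a and Ttk kept their sign but not their call. Cdc25c also lost its call without any WT Flt3+ or Irf8KO Flt3- array, and Cdk1, Kif2c and Nuf2 lost theirs without WT Flt3+ replicate 1. With all arrays, at least 1 other alternative ended the calls of Bub3, Cdc25b, Cdc25c, Kif11, Nuf2, Top2a and Ttk.

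In Irf8KO Flt3- GPs, Cdc25c, Mad2l1, Nuf2, Ccna2, Racgap1, Aurkb, Cenpa and Ckap2 had the largest called differences of the 40, at -0.69, -0.64, -0.63, -0.61, -0.58, -0.57, -0.54 and -0.53. Of the 5 genes without a call in Flt3+ GPs, 4 were among these 8. The 8 genes without a call in Flt3- GPs were Aurka, Kif23, Bub3, Cenpe, Cenpf, Kif2c, Nusap1 and Hmmr, and 2 of them, Kif23 and Nusap1, had differences above 0. Both Irf8KO arrays lay below both WT arrays for 37 genes, as did 42.7% of all genes. Kif11 and Top2a fell, with differences of -0.39 ± 0.071 (SE) and -0.41 ± 0.051 (SE) (limma adjusted p = 0.00763 and 0.00204). Leaving out 1 array gave 25 to 31 calls, all lower. Without WT Flt3- replicate 1 the lost calls were Anln, Aurkb, Cdc20, Cdc25b, Incenp, Prc1 and Ube2c, and other single arrays also took those of Kif4 and Cdc25c. With all arrays, at least 1 other alternative ended the calls of Anln, Aurkb, Cdc20, Cdc25b, Cdc25c, Incenp, Kif4 and Nuf2.

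Between the populations of WT mice the 40 genes had no common direction. Of the 40, 9 were called higher in Flt3+ GPs and 9 lower, where 61.8% of all genes were called, 22.6% higher and 39.2% lower. Both Flt3+ arrays lay above both Flt3- arrays for 17 genes and below them for 12, against 30.4% and 49.9% of all genes. The median difference was 0.013, against -0.12 over all genes. Kif23, Cdc25b, Cenpf, Nusap1, Prc1 and Kif11 were higher in Flt3+ GPs, by 0.92, 0.88, 0.83, 0.69, 0.43 and 0.39, and Top2a, Aurka and Ndc80 by 0.30, 0.16 and 0.16. Ccnb2, Cenpa, Cdca8, Mad2l1 and Bub1 were lower in Flt3+ GPs, with differences of -0.34, -0.34, -0.33, -0.32 and -0.28, as were Racgap1, Nuf2, Bub3 and Birc5 at -0.22, -0.17, -0.14 and -0.14. Birc5 was not called with the experiment as a block (limma adjusted p = 0.0506). Cdk1, Plk1, Ttk, Aurkb and Cdc20 were not called, at -0.19, 0.043, 0.031, -0.076 and -0.10. Leaving out 1 array gave 13 to 18 calls, and those of Aurka, Birc5, Bub3, Ndc80, Nuf2 and Racgap1 were lost without at least 1 array. The split depended on the scaling of the arrays. It was 23 higher and 1 lower after quantile normalization, 23 higher and 5 lower with the percentile taken over probes detected on all arrays, which moved the median of all genes to 0.038, and 17 higher and 5 lower when the all-gene median was set to 0.

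Between the populations of Irf8KO mice all 40 genes were called higher in Flt3+ GPs, where 45.8% of all genes were called, 22.1% higher and 23.6% lower. The groups did not overlap for any of the 40, where 34.7% of all genes lay wholly higher and 41.6% wholly lower. The median difference was 0.80, against -0.030 over all genes. Cenpf, Cdc25b, Kif23, Nusap1, Ccnb1, Ube2c, Kif11 and Plk1 led, at 1.57, 1.45, 1.38, 1.31, 1.18, 1.12, 1.11 and 1.09, where normexp background correction put the dim Cenpf at 0.48. The smallest difference was that of Bub3, 0.16 ± 0.04 (SE) (limma adjusted p = 0.0191). Cdk1, Ttk, Aurkb, Cdc20, Cenpa and Top2a lay at 0.76, 0.73, 0.78, 0.62, 0.63 and 1.02. This comparison shares its arrays with both genotype comparisons, so the 3 are not independent. Leaving out 1 array gave 38 to 40 calls, with Bub3 lost without either Irf8KO Flt3+ array or Irf8KO Flt3- replicate 1, and Aurkb without Irf8KO Flt3+ replicate 2.

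Other genes linked to cell division were taken in lists that were also chosen with earlier results of these data known. Their shares are set against 16.5% called higher in Irf8KO Flt3+ GPs and 27.2% called lower in Irf8KO Flt3- GPs over all genes. The 33 further spindle and cytokinesis genes had 26 rises and no fall in Irf8KO Flt3+ GPs (78.8%, median 0.41), and 22 falls and no rise in Irf8KO Flt3- GPs (66.7%, median -0.27). Depdc1a, Kifc1, Fam83d and Aspm rose most, by 0.84, 0.66, 0.65 and 0.61, and Lmnb1, Pbk, Cit and Cdca3 fell most, with differences of -0.83, -0.74, -0.69 and -0.64. Lmnb1 encodes lamin B1 of the nuclear lamina, so this list is wider than its name. Of the 33 further kinetochore and checkpoint genes, 19 rose in Irf8KO Flt3+ GPs (57.6%) and 26 fell in Irf8KO Flt3- GPs (78.8%). Hjurp, the chaperone of CENP-A, and the cohesin guardians Sgo1 and Sgo2a rose by 0.63, 0.61 and 0.58, and Spc24 of the NDC80 complex differed by -0.82 in Flt3- GPs. Of 18 condensin and cohesin genes, 10 rose in Flt3+ GPs (55.6%) and 12 fell in Flt3- GPs (66.7%), with the condensin genes Smc4 and Ncapg at 0.48 and 0.46 in Flt3+ GPs and Ncapg2 at -0.47 in Flt3- GPs. The 16 APC/C genes had the medians nearest 0 of these 4 lists, 0.09 in Flt3+ and -0.14 in Flt3- GPs, with 3 rises in Flt3+ GPs (Ube2s at 0.50, Cdc23 at 0.33 and Fzr1, which encodes the G1 activator CDH1, at 0.27) and 7 falls in Flt3- GPs (43.8%). The 3 rises of APC/C genes are 18.8% of the list, near the share of all genes, and 5 of the 16 lay below 0 in Flt3+ GPs. The interaction was called with a higher value in Flt3+ GPs for 28, 30, 14 and 8 genes of these 4 lists, against 21.4% of all genes.

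The genes that regulate these promoters did not move as 1 group. Of 23, 5 rose (21.7%) and 2 fell (8.7%) in Irf8KO Flt3+ GPs, near the 16.5% and 12.5% of all genes, and 2 rose (8.7%) and 12 fell (52.2%) in Irf8KO Flt3- GPs, against 16.5% and 27.2%. Foxm1, a factor that acts with MuvB in G2, read 1.39 and 1.36 on Irf8KO Flt3+ arrays, 0.93 and 1.03 on WT Flt3+ arrays, 0.53 and 0.52 on Irf8KO Flt3- arrays and 0.85 and 0.75 on WT Flt3- arrays. Its order of groups was that of 20 of the 40 genes, with differences of 0.40 in Irf8KO Flt3+ GPs and -0.27 in Irf8KO Flt3- GPs (limma adjusted p = 0.00477 and 0.0105). Mybl2, which encodes B-MYB, read 3.82 and 3.78 on Irf8KO Flt3+ arrays, 3.61 and 3.65 on WT Flt3+ arrays, 3.70 and 3.78 on Irf8KO Flt3- arrays and 4.62 and 4.56 on WT Flt3- arrays. It was highest in WT Flt3- GPs, so that it differed by -0.85 in Irf8KO Flt3- GPs (limma adjusted p = 0.000227) and by -0.96 between the WT populations (adjusted p = 2.73e-05). E2f7 and E2f1 fell in Irf8KO Flt3- GPs, with differences of -1.13 and -0.64, and were also the 2 that fell in Irf8KO Flt3+ GPs. E2f2 was higher in Flt3+ than in Flt3- GPs by 1.53 in Irf8KO and 0.89 in WT.

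Of 8 genes listed as restraints on mitotic entry, 3 rose (37.5%) and 3 fell (37.5%) in Irf8KO Flt3+ GPs, against 16.5% and 12.5% of all genes. In Irf8KO Flt3- GPs 3 rose (37.5%) and 2 fell (25%), against 16.5% and 27.2% of all genes. Cdkn1a, the CDK inhibitor p21, read 1.41 and 1.42 on Irf8KO Flt3+ arrays, 0.087 and 0.19 on WT Flt3+ arrays, 0.60 and 0.64 on Irf8KO Flt3- arrays and -0.33 and -0.32 on WT Flt3- arrays. It rose in Irf8KO in both populations, by 1.27 ± 0.05 (SE) in Flt3+ and 0.94 ± 0.05 (SE) in Flt3- GPs (limma adjusted p = 5e-05 and 0.000192), while the mitotic genes rose in one and fell in the other. Btg2, an antiproliferative gene, read 1.93 and 1.88 on Irf8KO Flt3+ arrays, 2.12 and 2.23 on WT Flt3+ arrays, 1.54 and 1.64 on Irf8KO Flt3- arrays and 0.62 and 0.64 on WT Flt3- arrays. It ran opposite to the 40 genes, with differences of -0.27 in Irf8KO Flt3+ GPs and 0.96 in Irf8KO Flt3- GPs and an interaction of -1.23 ± 0.082 (SE) (limma adjusted p = 0.00118). Fbxo5 is in this list but encodes EMI1, an inhibitor of the APC/C, which destroys cyclin B, so it is not itself a restraint. Like most of the mitotic genes, it was among the rises in Irf8KO Flt3+ GPs and the falls in Irf8KO Flt3- GPs. It differed by -0.42 in Irf8KO Flt3- GPs and had an interaction of 0.63 (limma adjusted p = 0.00201 and 0.00375).

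Genes of DNA replication and S phase, the phase before G2, mostly fell in Irf8KO Flt3- GPs and had a median near 0 in Irf8KO Flt3+ GPs. Of 44 such genes, 39 fell in Irf8KO Flt3- GPs (88.6%, against 27.2% of all genes, median -0.45), led by Ccne1, Gins1, Cdc6 and Rrm1 at -0.92, -0.76, -0.72 and -0.67. In Irf8KO Flt3+ GPs 10 rose (22.7%) and 2 fell (4.55%), near the 16.5% and below the 12.5% of all genes (median 0.055), with Prim2 at 0.77 and Ung at 0.49. Of the 44, 8 were called higher in Irf8KO Flt3+ GPs and lower in Irf8KO Flt3- GPs, where 28 of the 40 mitotic genes and 2.89% of all genes were. Between the WT populations 36 of the 44 were lower in Flt3+ GPs, against 39.2% of all genes, with Cdc45 and Rrm2 at -0.83 and -0.76. The median of the 44 there was -0.30, against -0.12 over all genes. For the mitotic genes, this was the comparison that depended most on the scaling of the arrays. Between the Irf8KO populations 23 of the 44 were higher and 1 lower, against 22.1% and 23.6% of all genes (median 0.18). The interaction was called with a higher value in Flt3+ GPs for 38 of the 44, as for 39 of the 40 mitotic genes, against 21.4% of all genes, with a median of 0.50. The difference between the 2 lists was not tested.

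**Figure D5:**
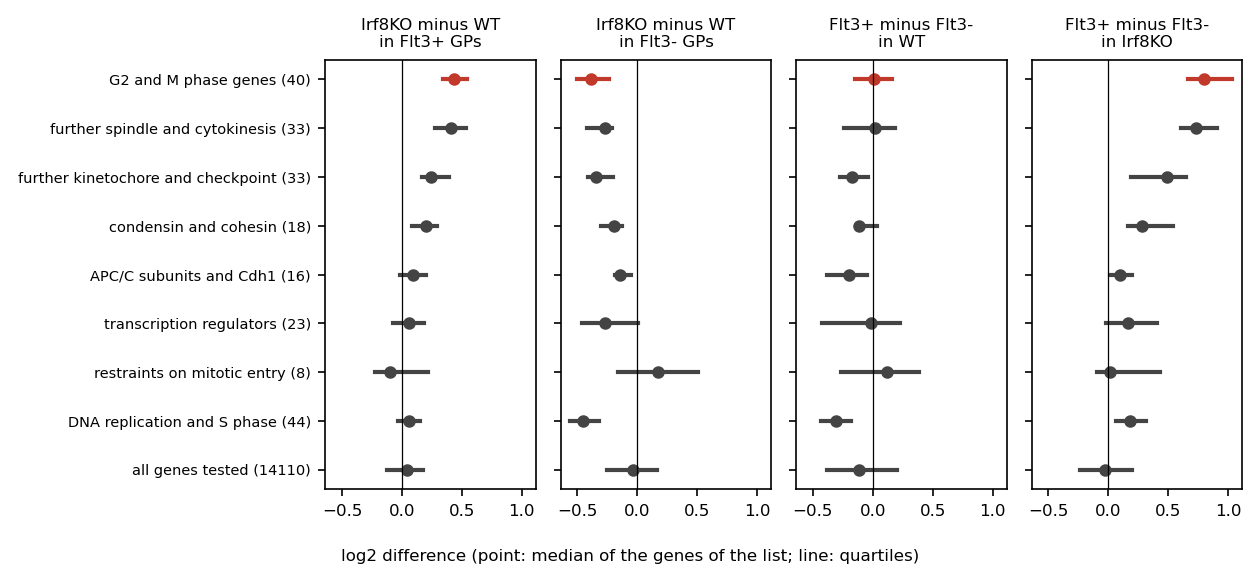
Median (point) and quartiles (line) of the log2 difference over the genes of each list, with the number of genes in brackets, in 4 comparisons. The G2 and M phase genes have medians of 0.435, -0.38, 0.013 and 0.80 from left to right, and all genes tested lie near 0 or, between the WT populations, at -0.12.

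Markers of granulocyte progenitors and of other cells differed between the same groups. Levels were summed on a linear scale where 1 is the 75th percentile of the array. The sum of 11 granulocyte progenitor genes was 1638 and 1638 on Irf8KO Flt3+ arrays, 1229 and 1128 on WT Flt3+ arrays, 3054 and 2803 on Irf8KO Flt3- arrays and 2607 and 2465 on WT Flt3- arrays. Elane, a neutrophil granule protease, read 5.96 and 5.96 on the log2 scale on Irf8KO Flt3+ arrays, 3.66 and 3.58 on WT Flt3+ arrays, 8.79 and 8.80 on Irf8KO Flt3- arrays and 8.36 and 8.25 on WT Flt3- arrays. Not all 11 went with Elane. In Irf8KO Flt3+ GPs 6 were called higher and 2 lower (Cebpe and Cd34), against 16.5% and 12.5% of all genes. In Irf8KO Flt3- GPs 5 were called higher and 3 lower (Cd34, Cebpe and Ms4a3), against 16.5% and 27.2%. The sum of 12 erythroid genes was 22.6 and 22.4 on Irf8KO Flt3+ arrays, 80.9 and 82.9 on WT Flt3+ arrays, 11.9 and 12.3 on Irf8KO Flt3- arrays and 33.1 and 33.1 on WT Flt3- arrays. Of the 12, 9 were well above background on both Irf8KO Flt3+ arrays, 11 on both WT Flt3+ arrays, 8 on both Irf8KO Flt3- arrays and 10 on both WT Flt3- arrays. On Irf8KO Flt3+ arrays most of that sum was Car2, at 4.185 and 4.187 on the log2 scale, so it hides the globins. Hba-a2 read -1.71 and -1.95 there and 4.81 and 4.81 on WT Flt3+ arrays. Of the 11 tested, 10 were called lower in Irf8KO Flt3+ GPs and none higher, against 12.5% and 16.5% of all genes. The sum of 10 B and T lymphoid genes was 249.5 and 270.2 on Irf8KO Flt3+ arrays, 131 and 139 on WT Flt3+ arrays, 17.52 and 17.99 on Irf8KO Flt3- arrays and 16.9 and 16.6 on WT Flt3- arrays. In Flt3+ GPs most of that sum was Dntt, the terminal transferase of lymphoid progenitors, at 7.80 and 7.92 on the log2 scale on Irf8KO arrays and 6.81 and 6.91 on WT arrays. Of the 10, 9 were well above background on both arrays of each Flt3+ group and 6 on both arrays of each Flt3- group. Eosinophil, basophil and mast cell genes, 11 in all, summed to 7.69 and 8.03 on Irf8KO Flt3+ arrays, 15.9 and 16.5 on WT Flt3+ arrays, 74.1 and 74.0 on Irf8KO Flt3- arrays and 149.8 and 150.2 on WT Flt3- arrays. The sum of 9 mature neutrophil genes was 37.9 and 38.7 on Irf8KO Flt3+ arrays, 8.56 and 8.46 on WT Flt3+ arrays, 30.9 and 30.7 on Irf8KO Flt3- arrays and 14.4 and 14.8 on WT Flt3- arrays. On all 8 arrays most of that sum was S100a8 and S100a9. Between the WT populations, S100a8 and Cxcr2 were called lower in Flt3+ GPs, and Mmp8, Retnlg and S100a9 higher. The sum of 5 monocyte genes was 137 and 141 on Irf8KO Flt3+ arrays, 61.0 and 63.8 on WT Flt3+ arrays, 145 and 144 on Irf8KO Flt3- arrays and 59.9 and 60.4 on WT Flt3- arrays. Both of these sums were higher in Irf8KO in both populations, but the monocyte gene Cx3cr1 was higher in Irf8KO in Flt3+ GPs and lower in Irf8KO in Flt3- GPs. The sum of 8 megakaryocyte and platelet genes was 4.45 and 4.77 on Irf8KO Flt3+ arrays, 13.6 and 14.4 on WT Flt3+ arrays, 5.40 and 5.38 on Irf8KO Flt3- arrays and 7.89 and 7.84 on WT Flt3- arrays. That of 8 dendritic cell genes was 218 and 223 on Irf8KO Flt3+ arrays, 213 and 179.9 on WT Flt3+ arrays, 242 and 226 on Irf8KO Flt3- arrays and 184 and 198 on WT Flt3- arrays. On all 8 arrays most of that sum was Siglech, at 7.45 to 7.91 on the log2 scale, so it hides the other genes. In Flt3+ GPs Itgax read 2.42 and 2.48 on Irf8KO arrays and 0.33 and 0.40 on WT arrays. Ccr9 went the other way there, at -0.44 and -0.47 on Irf8KO arrays and 0.73 and 0.70 on WT arrays. The part of any of these cells in the differences of the mitotic genes was not tested.

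Several probes could be compared for 11 of the 40 genes. The 15 further probes had the sign of the probe used in 15 of 15 cases in Irf8KO Flt3+ against WT, and in 14 of 15 in Irf8KO Flt3- against WT, with median gaps of 0.055 and 0.066. The exception was 1 of the 2 further Cdk1 probes, which lay between -3.71 and -2.88 over all arrays, and gave 0.18 in Irf8KO Flt3- GPs, where the probe used gave -0.52 and the third probe -0.56. For the interaction 14 of 15 had the same sign, with a median gap of 0.076. The same dim Cdk1 probe was the exception, at -0.094 where the other Cdk1 probes gave 0.95 and 0.95. Between the WT populations only 11 of 15 had the same sign. There both further Ccnb1 probes, dimmer than the one used, gave -0.59 and -0.49 where the probe used gave 0.10, so the probes of Ccnb1 disagree on that comparison.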

How the data were processed

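One-colour arrays measured RNA of 8 samples in 4 groups of 2. The authors deposited a Feature Extraction file per array and, per the file headers, it was made with Agilent Feature Extraction 10.7.3.1. The processed signal in it is an intensity on a linear scale, and its deposited flags, such as the one for a spot well above background, have no unit. The series' value table was deposited too. Against the processed intensity it is linear and uncentred, with 1 factor per array (0.672 to 1.33) that sets each 75th percentile to 426, and its column medians were 28.7 and 27.1 (Irf8KO Flt3+), 29.9 and 28.8 (WT Flt3+), 27.5 and 27.6 (Irf8KO Flt3-) and 26.9 and 28.0 (WT Flt3-). It was used only as an alternative.

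From these values, control spots and outlier spots (93 to 178 per array) were left out and spots of a probe averaged, which left 55681 probes. Each value is log2 of the processed signal minus the 75th percentile of the array. Probes were named by RefSeq accession: 26762 matched 20284 symbols and 28919 were not named. A probe was kept where both arrays of some group read it well above background, and the brightest kept probe stood for its gene, which gave 14110 genes. limma 3.58.1 (R 4.3.3) fitted 1 mean per group over all arrays, with Benjamini-Hochberg adjustment over all genes and calls at an adjusted p under 0.05. The number of arrays limits the precision. The fit was tested on simulated data. Such a test cannot show whether the spread between the 2 samples of a group is technical.

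Genes given in full are, per comparison, the 8 largest called differences and the first gene of each role, and from other lists at most the 4 largest called; genes without a call are given by values. The members and lists were chosen with earlier results of these data known. The replicate numbers are experiment numbers, per the labels, and could pair the samples. Deviations of same-numbered samples from their group means correlated at -0.028 to 0.12 between groups, highest between the Flt3+ groups. The fit has no block, and values with experiment as a block are given where they end a call. Alternatives changed the scaling, the background correction, the probe filter, the probe rule, the groups fitted, the replicate block and the arrays included.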

Additional observations from a re-analysis of the deposited data

Results flagged for a closer look

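The genotype difference of 39 of the 40 mitotic genes differed between Flt3+ and Flt3- GPs by the interaction test (limma, adjusted p under 0.05, n = 2 arrays a group). Of all genes tested, 30.9% were called in this test, 21.4% with a higher value in Flt3+ GPs and 9.45% with a lower one. As log2 differences on the probes used, the interactions of the largest were Cdc25c 1.27, Ccnb1 1.08, Plk1 1.05, Birc5 0.97, Bub1 0.97, Cenpa 0.97, Ube2c 0.96 and Cdk1 0.95. Those of the first-listed genes of the other roles were Ttk 0.70, Aurkb 0.86, Cdc20 0.73, Kif11 0.72, Kif23 0.46 and Top2a 0.72. For Kif23 the difference was 0.52 in Flt3+ GPs and 0.06 in Flt3- GPs, so that it did not change sign. For Cdk1, 1 of its 3 probes was dim and gave an interaction of -0.094. The call of Aurkb was lost without any one of 6 of the 8 arrays, and those of Bub3 and Kif2c without some.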

How the results depend on the processing

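No mitotic gene was called lower in Irf8KO Flt3+ GPs, higher in Irf8KO Flt3- GPs, or lower in Flt3+ than in Flt3- GPs of Irf8KO mice under any alternative run. Leaving out 1 array gave 26 to 35 calls in Irf8KO Flt3+ GPs, 25 to 31 in Irf8KO Flt3- GPs, 13 to 18 between the WT populations, 38 to 40 between the Irf8KO populations and 37 to 40 for the interaction. The other alternatives gave 31 to 36, 26 to 32, 12 to 28, 39 to 40 and 38 to 40 calls in the same order; the fit on only the groups compared was not run for the interaction. The replicate block gave 36, 30, 19, 40 and 38 calls, and with it Aurkb and Cdc25b were no longer called in Irf8KO Flt3- GPs (limma adjusted p = 0.0599 and 0.0581), Birc5 between the WT populations (adjusted p = 0.0506) or Aurkb for the interaction (adjusted p = 0.0652). It added Ckap2 in Irf8KO Flt3+ GPs (adjusted p = 0.0489) and Kif20a and Kif4 between the WT populations (adjusted p = 0.0437 and 0.0405), and changed no other call of the 40 genes. The comparison of the WT populations depended most on scaling: 28 genes were called with the percentile over probes well above background on all arrays, against 18. Quantile normalization turned Cdc20 to 0.21, Birc5 to 0.20, Bub3 to 0.12, Tpx2 to 0.12 and Incenp to 0.31. The percentile over detected probes turned Birc5 to 0.011, Bub3 to 0.0089, Incenp to 0.14 and Espl1 to 0.14, and the mean of all probes turned Ccnb1 to -0.33. Over all genes, 4089 were called in Irf8KO Flt3+ GPs, against 2677 with no filter on dim probes, 2666 with only these 2 groups, and 2185 and 2003 without Irf8KO Flt3+ replicate 1 and 2. In Irf8KO Flt3- GPs 6158 were called, and 4051 without WT Flt3- replicate 2. For the interaction 4357 were called, 2725 with no filter, 2900 and 2517 without either Irf8KO Flt3+ array and 2586 and 2553 without either WT Flt3- array. The cause of these shifts was not tested. Of the 40 genes, Cenpf, Aurkb, Cdc25c and Kif2c had the widest SEs.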
